A study of Homo sapiens with 4 samples.

Results

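The genes examined here encode the nonmuscle myosin II motor and proteins that work with it on actin filaments: the regulatory light chains MYL12A, MYL12B and MYL9, the essential light chain MYL6, the heavy chains MYH9 and MYH10, the tropomyosins TPM1 and TPM4, and the calponin family members CNN2 and TAGLN. They were chosen by name because the MYL12A signal was lower with nicotine on these arrays, and the question is whether its partners shared that difference. They are 10 of the 19775 genes on the array and have 27 probe sets that name 1 of them alone, out of 54613, plus 1 probe set that names both MYL12B and MYL12A. As the MYL12A difference prompted the choice, it is given as a description and supports nothing.

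Nonmuscle myosin II is a hexamer of paired heavy chains, regulatory light chains and essential light chains that pulls on actin filaments. Phosphorylation of the regulatory light chain by kinases such as MYLK and ROCK1 turns the motor on, and a phosphatase that contains PPP1R12A turns it off. Tropomyosins run along the filament and set which motors can bind it, and in epithelial tumor cells such as those of lung adenocarcinoma this machinery serves adhesion, migration and the last step of cell division.

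RNA came from A549 cells, an established line of human lung adenocarcinoma, a non-small cell lung cancer (NSCLC). All cells were transfected with an siRNA, either against ARRB1, which encodes the scaffold protein β-arrestin-1, or a control siRNA, and all were then serum starved for 36 h. Cells of each siRNA were also given 1 µM nicotine for 24 h or were left untreated. The groups are therefore ARRB1 siRNA with nicotine, ARRB1 siRNA serum starved, control siRNA with nicotine and control siRNA serum starved, each a single Affymetrix U133 Plus 2.0 array. Whether the untreated cells were kept for the further 24 h is not given in the sources used here.

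With 1 array per condition, condition and array cannot be told apart, and no difference below has a replicate check or a p-value. In place of a replicate error, each log2 difference is set beside the SD of the log2 differences of the 500 probe sets nearest to it in mean signal, between the same 2 arrays. That SD holds real differences as well as noise, and it does not take out a shift that bright probe sets share between 2 arrays. A probe set was counted as expressed where its mean signal was at least 66.3, the median of all probe sets, and a gene was represented by its brightest probe set. By that measure 9 of the 10 genes were expressed, all but MYL9, as were 21 of the 27 probe sets. Each probe set has its own brightness, so levels are compared only within a probe set or a fixed list, from array to array.

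The 4 arrays carried the same scaling, with a trimmed mean of 500.1 each, and medians of 68.6 to 73.3. ARRB1 itself was lower with ARRB1 siRNA in 6 of its 7 probe sets, in nicotine treated as in starved cells. By these signals the depletion looked partial, though with 1 array per condition its extent is not settled. Over its probe sets a median of 65.7% of the control siRNA signal was left with nicotine and 54.2% in starved cells. All 6 epithelial markers (KRT7, KRT8, KRT18, KRT19, EPCAM and CDH1) were expressed, with summed signals of 58388 to 75255 over the arrays. Of 7 muscle markers, DES and ACTA2 were expressed and MYH11, CNN1, LMOD1, MYL2 and MYL7 were not, and the sum was 925 to 1107. Of 5 fibroblast markers 2 were expressed (sums of 632 to 746), of 3 endothelial markers 1 (188 to 261) and of 3 blood markers 0 (89.0 to 155). The epithelial sum was highest in the nicotine treated ARRB1 siRNA cells (75255) and lowest in the starved control siRNA cells (58388), as for several of the bright genes below, and its part in their differences was not tested. That sum is carried by the bright keratins, and the 2 adhesion markers ran otherwise. CDH1 read 2827 with nicotine and 3201 starved under ARRB1 siRNA, and 4812 with nicotine and 5218 starved under control siRNA, a difference of ARRB1 siRNA against control siRNA of -0.77 with nicotine (SD 0.27) and -0.71 in starved cells (SD 0.24). EPCAM was lowest in nicotine treated ARRB1 siRNA cells, at 384 against 531 in starved cells (-0.47, SD 0.30), and read 465 and 538 under control siRNA with nicotine and starved.

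MYL12A, on chromosome 18 from 3247482 to 3256237 (GRCh38.p14), encodes a regulatory light chain of nonmuscle myosin II. Its bright probe set, 201319_at, gave signals of 4815 with nicotine and 7781 in starved cells under ARRB1 siRNA, and 5021 with nicotine and 6656 in starved cells under control siRNA. Both nicotine arrays lay below both starved arrays. The log2 difference for nicotine was -0.69 under ARRB1 siRNA (0.619 of the starved signal, SD of like probe sets 0.20) and -0.41 under control siRNA (0.754 of the starved signal, SD 0.13). The nicotine difference was larger in size under ARRB1 siRNA by 0.29 on the log2 scale, against an SD of 0.21 for that quantity, and this gap was not tested. Between siRNAs, ARRB1 siRNA against control siRNA, the difference was -0.06 with nicotine (SD 0.24) and 0.23 in starved cells (SD 0.21).

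The other probe sets that name MYL12A alone are far dimmer and did not follow 201319_at. Probe set 1555976_s_at had 178 and 166 in ARRB1 siRNA cells with nicotine and starved, and 121 and 133 in control siRNA cells with nicotine and starved. Probe set 1555977_at had 74.2 and 81.3, and 83.6 and 75.7, in the same order of arrays. Probe set 1555978_s_at, below the expression limit, had 59.2 and 54.9, and 46.0 and 41.2. Their nicotine differences took both signs, from -0.14 to 0.16 on the log2 scale, and all were smaller than the SD of probe sets of like signal (0.39 to 0.85).

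MYL12B, on chromosome 18 from 3262133 to 3278461, encodes a nearly identical regulatory light chain. Probe set 221474_at read 10844 with nicotine and 10873 starved under ARRB1 siRNA, and 11104 with nicotine and 9762 starved under control siRNA. The starved control siRNA array was the lowest, and the other 3 were close to each other. The nicotine difference was -0.00 under ARRB1 siRNA (SD 0.19) and 0.19 under control siRNA (SD 0.10), so MYL12B was not lower with nicotine beyond that scatter in either siRNA. Taken relative to MYL12B on the same arrays, MYL12A had a nicotine difference of -0.69 under ARRB1 siRNA and -0.59 under control siRNA on the log2 scale. These values use MYL12A probe set 201319_at with 1 array per condition, and the dimmer MYL12A probe sets did not follow it. As MYL12A was chosen for its lower nicotine signal, the gap to MYL12B is a description and supports nothing. Nor do the values show that either gene stayed level.

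Probe set 201318_s_at, which names both MYL12B and MYL12A, read 13553 with nicotine and 14481 starved under ARRB1 siRNA, and 13230 with nicotine and 12521 starved under control siRNA. Its nicotine differences were -0.10 (SD 0.18) and 0.08 (SD 0.10), both within the scatter of like probe sets. Signal from closely related transcripts cannot be split in such a probe set.

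MYL9, on chromosome 20 from 36541519 to 36551447, encodes the regulatory light chain best known from smooth muscle. Neither of its probe sets reached the expression limit. Probe set 244149_at read 23.3 with nicotine and 20.2 starved under ARRB1 siRNA, and 11.8 with nicotine and 9.54 starved under control siRNA, and 201058_s_at read 4.91 and 6.29, and 43.3 and 4.77, in the same order. The ARRB1 siRNA arrays were the higher ones for the first probe set, while for the second a single array, control siRNA with nicotine, stood apart from the rest. The like-signal SDs at this level reached 1.76 on the log2 scale, and only the differences of 3.18 for nicotine under control siRNA and -3.14 for ARRB1 siRNA with nicotine in 201058_s_at passed them. Both rest on that single array.

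MYL6, on chromosome 12 from 56158359 to 56161579, encodes the essential light chain, which stiffens the lever arm of the heavy chain. Probe set 212082_s_at read 21512 with nicotine and 18746 starved under ARRB1 siRNA, and 17970 with nicotine and 15806 starved under control siRNA. Nicotine arrays were the higher of each pair, and ARRB1 siRNA arrays were higher than control siRNA arrays at the same treatment. The 4 log2 differences lay between 0.19 and 0.26, each larger than the like-signal SD (0.09 to 0.17). MYL6 is among the brightest genes on the array, and after quantile normalization, which gives every array the same distribution, its 4 differences were 0.00 to 0.02. The dimmer probe set 214002_at read 201 and 173 under ARRB1 siRNA with nicotine and starved, and 217 and 288 under control siRNA with nicotine and starved, so that its highest array was the lowest one of 212082_s_at.

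**Figure D1:**
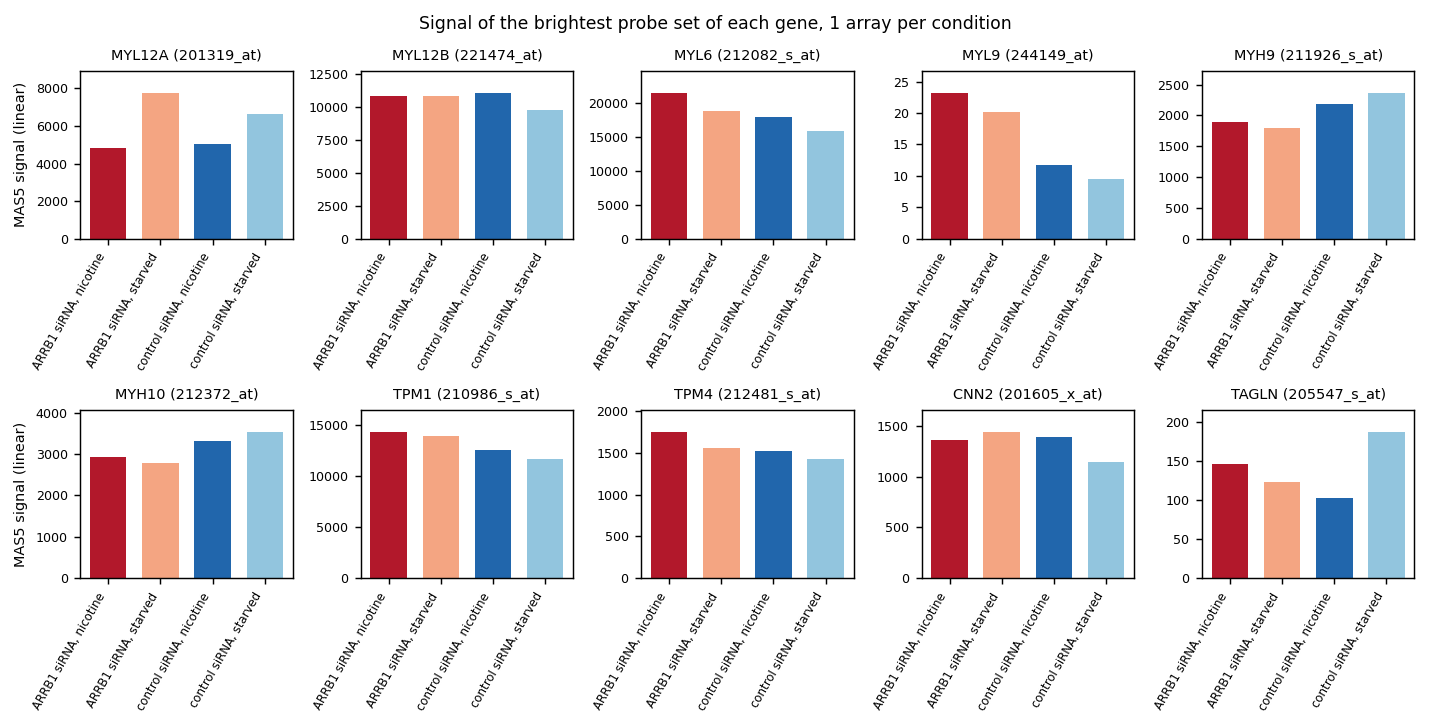
Bars give the signal (linear, from 0) of the brightest probe set of each of the 10 genes on the 4 arrays, with 1 array per condition and no error bars. MYL12A alone has both nicotine bars (4815 and 5021) below both starved bars (7781 and 6656), while MYL6 has its lowest bar in starved control siRNA cells (15806).

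The heavy chains MYH9 (chromosome 22 from 36281280 to 36387967) and MYH10 (chromosome 17 from 8474212 to 8630725) carry the motor domains of myosin IIA and IIB. MYH9 probe set 211926_s_at read 1891 with nicotine and 1800 starved under ARRB1 siRNA, and 2187 with nicotine and 2372 starved under control siRNA. MYH10 probe set 212372_at read 2930 with nicotine and 2784 starved under ARRB1 siRNA, and 3314 with nicotine and 3534 starved under control siRNA. In both genes the arrays ordered alike, with both ARRB1 siRNA arrays below both control siRNA arrays. In starved cells the difference of ARRB1 siRNA against control siRNA was -0.40 for MYH9 (SD 0.24) and -0.34 for MYH10 (SD 0.26), and with nicotine it was -0.21 (SD 0.27) and -0.18 (SD 0.31). Nicotine differences were 0.07 in both genes under ARRB1 siRNA and -0.12 and -0.09 under control siRNA, all within the like-signal SDs of 0.14 to 0.23.

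A second MYH10 probe set, 213067_at, had a pattern of its own. It read 230 with nicotine and 181 starved under ARRB1 siRNA, and 287 with nicotine and 187 starved under control siRNA. Here the nicotine arrays were the higher ones, with log2 differences of 0.34 under ARRB1 siRNA (SD 0.37) and 0.62 under control siRNA (SD 0.32). Neither MYH9 nor either probe set of MYH10 had the lower nicotine signal seen for MYL12A in both siRNAs.

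TPM1 (chromosome 15 from 63042747 to 63071915) and TPM4 (chromosome 19 from 16067538 to 16103002) encode tropomyosins, coiled coil proteins that line actin filaments and are made in many isoforms. Probe set 210986_s_at of TPM1 read 14370 with nicotine and 13975 starved under ARRB1 siRNA, and 12588 with nicotine and 11677 starved under control siRNA. Its differences for ARRB1 siRNA against control siRNA were 0.19 with nicotine (SD 0.18) and 0.26 in starved cells (SD 0.16), and for nicotine 0.04 (SD 0.18) under ARRB1 siRNA and 0.11 (SD 0.09) under control siRNA. The last was 0.01 after median centring and 0.02 after quantile normalization, where the siRNA differences were 0.02 with nicotine and 0.10 in starved cells. The bright probe sets 210987_x_at (10357 to 12628) and 206116_s_at (4760 to 5642) were likewise highest with ARRB1 siRNA and nicotine.

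Dimmer TPM1 probe sets differed from these and from each other. Probe set 206117_at read 712 and 666 under ARRB1 siRNA with nicotine and starved, and 849 and 1086 under control siRNA with nicotine and starved, which makes starved control siRNA cells the highest. Probe set 238688_at read 420 and 407, and 571 and 329, in the same order, with a log2 difference for nicotine of 0.04 under ARRB1 siRNA and 0.80 under control siRNA (SD 0.25). Whether the probe sets report different TPM1 isoforms was not tested.

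For TPM4, probe set 212481_s_at read 1750 with nicotine and 1555 starved under ARRB1 siRNA, and 1524 with nicotine and 1431 starved under control siRNA. Probe set 209344_at ordered the arrays the same way over a wider span, with 2122 and 1470 under ARRB1 siRNA and 1353 and 1013 under control siRNA, a 2.09-fold range. Its nicotine differences were 0.53 under ARRB1 siRNA (SD 0.24) and 0.42 under control siRNA (SD 0.20), and those of ARRB1 siRNA against control siRNA were 0.65 with nicotine (SD 0.29) and 0.54 in starved cells (SD 0.27). All 4 passed the like-signal SD, while the 4 of 212481_s_at (0.09 to 0.20) did not. Probe set 1567107_s_at spanned 1073 to 1244.

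CNN2 (chromosome 19 from 1026608 to 1039065) encodes calponin 2, which binds actin and tropomyosin. Its probe set 201605_x_at read 1362 with nicotine and 1440 starved under ARRB1 siRNA, and 1387 with nicotine and 1147 starved under control siRNA. The starved control siRNA array was lowest, and the nicotine difference was -0.08 under ARRB1 siRNA (SD 0.27) and 0.27 under control siRNA (SD 0.20).

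TAGLN (chromosome 11 from 117199294 to 117207465) encodes transgelin, an actin binding protein abundant in smooth muscle. Probe set 205547_s_at read 146 with nicotine and 123 starved under ARRB1 siRNA, and 103 with nicotine and 187 starved under control siRNA. Probe set 1555724_s_at read 125 and 119, and 41.6 and 81.8, and 226523_at read 115 and 124, and 117 and 91.3, in the same order. For the first and second of these probe sets the nicotine array was the lower one under control siRNA and the higher one under ARRB1 siRNA. Their nicotine differences were 0.25 (SD 0.46) and 0.08 (SD 0.59) under ARRB1 siRNA, and -0.86 (SD 0.43) and -0.98 (SD 0.56) under control siRNA. The nicotine difference under ARRB1 siRNA minus that under control siRNA was 1.11 (SD 0.59) in 205547_s_at and 1.05 (SD 0.79) in 1555724_s_at, and was not tested. The third, 226523_at, had nicotine differences of -0.11 and 0.36 (SD 0.49), opposite in sign to the others. TAGLN signals are dim, and the SDs are correspondingly wide.

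Many contractile genes are switched on by the serum response factor SRF, which binds a sequence called the CArG box together with the coactivators MRTFA and MRTFB. RefSeq promoter windows of 250 bases before to 50 after a gene start (GRCh38.p14) were matched for 8 of the 10 genes, in 14 windows, and searched on both strands. MYL9 and TAGLN had no matched window, so nothing is known here of a box in either. Among the 14 windows, a CArG box was found in 1 window of TPM4 and 1 of CNN2, against 1.29% of all 35116 windows. The other matched windows of TPM4 held none. The matches are shown as the only ones in these windows, and each 30-base stretch has the CArG box in capitals.
TPM4 (chr19:16067355-16067384, + strand): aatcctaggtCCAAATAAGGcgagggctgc
CNN2 (chr19:1026509-1026538, + strand): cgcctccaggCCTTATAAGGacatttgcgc
The box begins 173 bases before the start in TPM4 and 89 bases before it in CNN2. A match is a description of the letters and says nothing of binding. The brightest probe set of each of these genes was lowest in starved control siRNA cells, as were those of MYL12B, MYL6, MYL9 and TPM1. No box was found in the matched windows of MYL12B, MYL6 and TPM1, nor in those of MYL12A, MYH9 and MYH10.

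Across the 10 genes, the lower MYL12A signal with nicotine was not general. Under ARRB1 siRNA 3 of 10 were lower with nicotine (3 of the 9 expressed), against 51.9% of all expressed genes, and 1 was at least 1.2-fold lower, against 18.5%. Under control siRNA 4 of 10 were lower (4 of the 9 expressed), against 55.6%, and 2 were at least 1.2-fold lower, against 10.8%. These 2 were MYL12A and TAGLN, and MYL12A was the 1 under ARRB1 siRNA. At least 1.2-fold higher were 0 under ARRB1 siRNA (12.3% of expressed genes) and 2 under control siRNA (11% of expressed genes), CNN2 and MYL9. With 10 genes, counts of 0 to 2 cannot be set firmly above or below these shares, and the place of MYL12A among them was fixed by the choice of genes.

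The median nicotine difference over the 10 genes was 0.07 under ARRB1 siRNA and 0.10 under control siRNA, on the log2 scale. Without MYL12A it was 0.07 and 0.11. Over all expressed genes it was -0.01 and -0.02, and over the brightest 10% of genes 0.05 and 0.02. After centring each array on its median the member medians were 0.14 under ARRB1 siRNA and 0.00 under control siRNA. No member differed 2-fold with nicotine in either siRNA by its brightest probe set. Of all expressed genes, 0.958% were at least 2-fold lower and 0.495% higher under ARRB1 siRNA, and 0.335% lower and 0.719% higher under control siRNA.

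**Figure D2:**
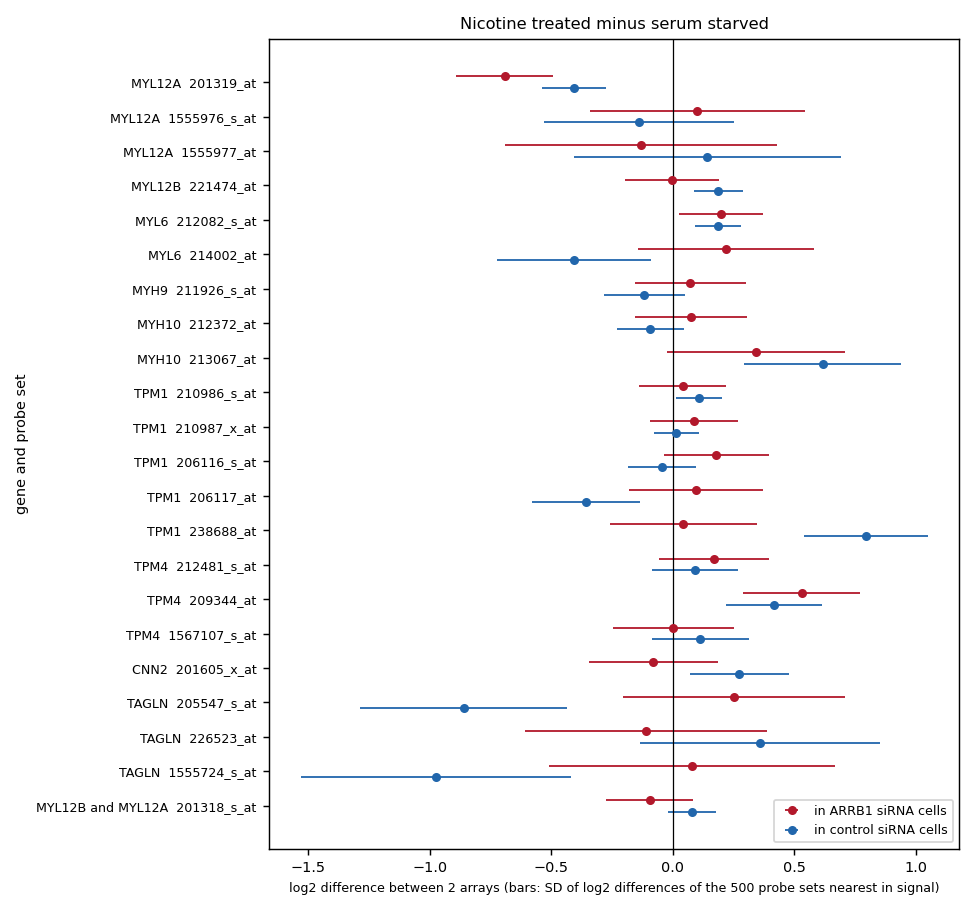
Points give the log2 difference of nicotine against serum starved cells for each expressed probe set of the members and the shared MYL12B and MYL12A probe set, with bars of 1 SD of the 500 probe sets of like signal. MYL12A 201319_at lies at -0.69 under ARRB1 siRNA and -0.41 under control siRNA, while MYL12B lies at -0.00 and 0.19.

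In nicotine treated cells, ARRB1 siRNA against control siRNA, 5 of the 10 genes were lower (5 of the 9 expressed), against 47.8% of expressed genes, with 0 at least 1.2-fold lower (19.4% of expressed genes) and 2 at least 1.2-fold higher (17.5%), TAGLN and MYL9. By their brightest probe sets 0 were 2-fold lower there (1.4% of expressed genes) or higher (0.879%). Of the dimmer TAGLN probe sets, 1555724_s_at was at 1.59 (SD 0.59) and 226523_at at -0.03 (SD 0.59). MYL9 201058_s_at was at -3.14 (SD 1.59), opposite in sign to the counted 244149_at (0.98, SD 1.56). In starved cells 3 of 10 were lower (3 of the 9 expressed), against 47.6%, all of them at least 1.2-fold (16.4%), namely MYH9, MYH10 and TAGLN. TAGLN is counted by 205547_s_at (-0.60, SD 0.49). Its dimmer probe sets 226523_at (0.44, SD 0.53) and 1555724_s_at (0.53, SD 0.61) were higher in starved cells, within their SDs. At least 1.2-fold higher there were 2 (18.3%), CNN2 and MYL9, and MYL9 alone passed 2-fold (1.01% of expressed genes), at signals of 20.2 with ARRB1 siRNA and 9.54 with control siRNA, while 0 were 2-fold lower (0.783%). MYL9 is not itself among the expressed genes of these shares. With a floor at a signal of 16.5 its difference was 0.29 in starved cells, under 2-fold, and its nicotine difference under control siRNA was 0.00 in place of 0.31, under 1.2-fold. By their brightest probe sets, TPM1 (0.26, SD 0.16), MYL6 (0.25, SD 0.13) and MYL12A (0.23, SD 0.21) were higher there by more than the like-signal SD, while MYL12B (0.16, SD 0.19) and TPM4 (0.12, SD 0.26) were within it. The dimmer probe sets MYL6 214002_at (-0.73, SD 0.40) and TPM1 206117_at (-0.71, SD 0.34) were lower by more than theirs, and MYL6 212082_s_at was at 0.00 after quantile normalization. The member medians were 0.08 with nicotine and 0.19 in starved cells, against 0.02 and 0.02 over all expressed genes and 0.11 and 0.08 over the brightest 10% of genes.

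**Figure D3:**
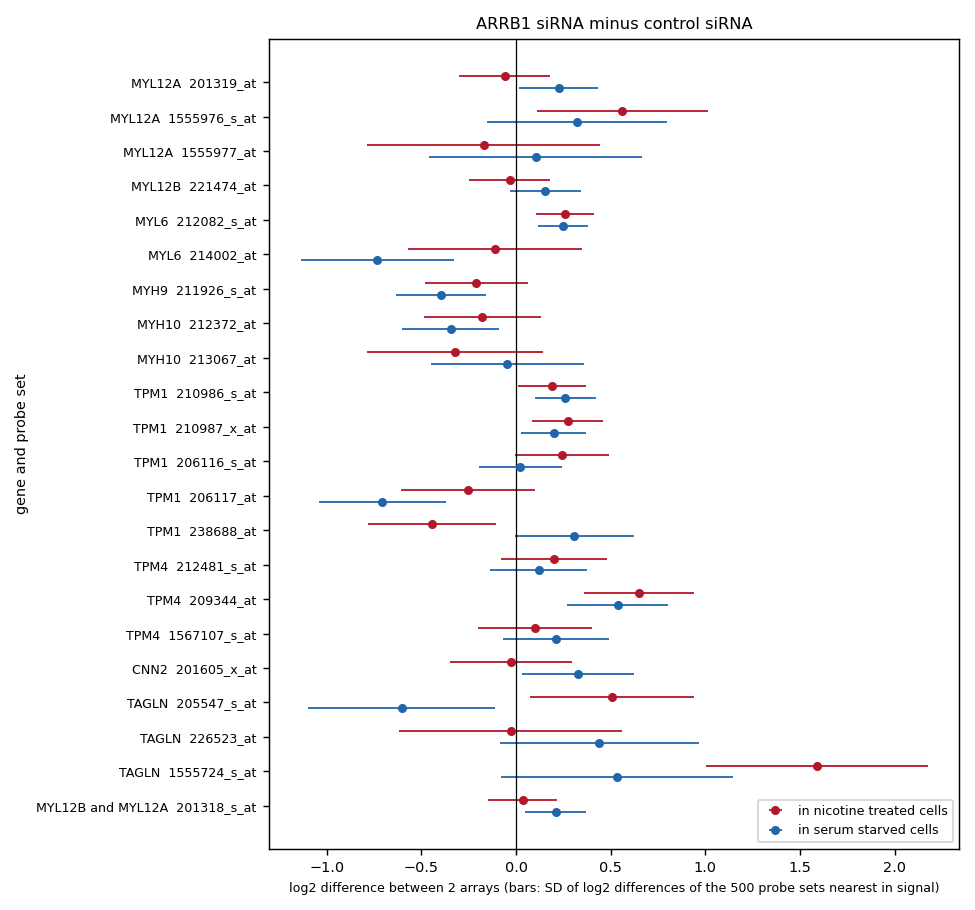
Points give the log2 difference of ARRB1 siRNA against control siRNA for the same probe sets, in nicotine treated and in serum starved cells, with bars of 1 SD of the 500 probe sets of like signal. In starved cells MYH9 lies at -0.40 and MYH10 212372_at at -0.34, while the MYL6 probe sets lie on both sides of 0, 212082_s_at at 0.25 and 214002_at at -0.73.

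The nicotine comparison under control siRNA and the siRNA comparison in starved cells both use the starved control siRNA array, so their values for a gene are not independent. By brightest probe sets that array was the lowest of the 4 for MYL12B, MYL6, MYL9, TPM1, TPM4 and CNN2 and the highest for MYH9, MYH10 and TAGLN. Dimmer probe sets could differ. The same array was the highest for MYL6 214002_at and TPM1 206117_at and the lowest for TAGLN 226523_at. Side by side, by brightest probe sets, nicotine and ARRB1 siRNA gave 0.19 and 0.25 for MYL6, 0.27 and 0.33 for CNN2, -0.12 and -0.40 for MYH9 and -0.86 and -0.60 for TAGLN against that array. The other TAGLN probe sets gave 0.36 and 0.44 (226523_at) and -0.98 and 0.53 (1555724_s_at). By brightest probe sets MYL12A was the exception among the expressed members, with -0.41 and 0.23. Of the 21 expressed probe sets of the members, 5 were lower and 7 higher than the like-signal SD with nicotine under control siRNA, against 11.8% and 15.7% of all expressed probe sets. Under ARRB1 siRNA 1 was lower and 2 were higher, against 14.5% and 12.9%. For ARRB1 siRNA against control siRNA, 1 was lower and 7 were higher with nicotine (15.5% and 12.1%), and 5 were lower and 6 higher in starved cells (13.7% and 14.4%). No probe set of a member passed its SD in opposite directions with nicotine under the 2 siRNAs.

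Among the 1978 brightest genes, MYL12A was 1 of 6 with a nicotine difference as low or lower under ARRB1 siRNA and 1 of 4 under control siRNA, counting itself. The genes of this bright set that were at least 1.2-fold lower with nicotine in both siRNAs were 2, MYL12A and TMPO. In the bright set 6.62% of genes passed this limit under ARRB1 siRNA and 1.01% under control siRNA. MYL12A was chosen for its lower nicotine signal, so its rank and its place here support nothing. TMPO, a protein of the nuclear lamina, read 4083 with nicotine and 5196 starved under ARRB1 siRNA, and 4489 with nicotine and 5408 starved under control siRNA. By distance over the 3 log2 differences from the starved control siRNA array, the nearest of the 1977 other bright genes were TRIB3 (distance 0.25), EPHX1 (0.26), WDR82 (0.32), TMPO (0.32) and SRSF11 (0.32). None of these is a myosin or actin gene. The search could not have returned MYL9, MYH9, MYH10, TPM4, CNN2 or TAGLN, which are outside the bright set. The members it could return, MYL12B, MYL6 and TPM1, were already known to differ from MYL12A with nicotine. The list therefore does not answer whether partners share the MYL12A difference. TRIB3, a stress induced pseudokinase, read 4942 with nicotine and 7500 starved under ARRB1 siRNA, and 6137 with nicotine and 7194 starved under control siRNA.

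**Figure D4:**
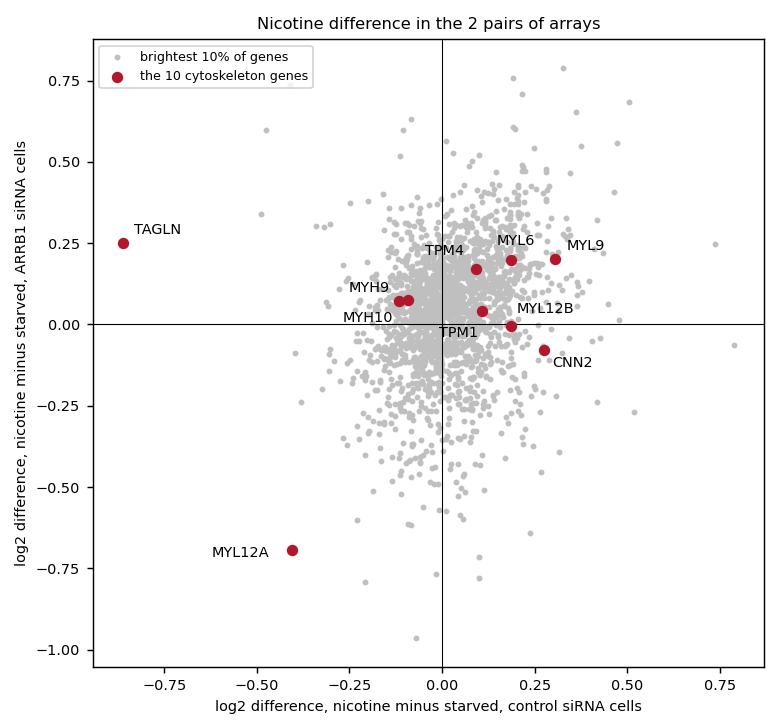
Each point is a gene of the brightest 10% (grey) or a member (red), with the log2 difference of nicotine against starved cells under control siRNA on the x axis and under ARRB1 siRNA on the y axis. MYL12A lies at -0.41 and -0.69, at the lower left edge, TAGLN at -0.86 and 0.25, and most other members close to 0.

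Genes around the motor were taken from lists of 72 genes, of which 62 had a probe set that names them alone and 58 were expressed. In nicotine treated against starved cells, 4 were at least 1.2-fold lower and 9 higher under ARRB1 siRNA (18.5% and 12.3% of all expressed genes), and 0 lower and 3 higher under control siRNA (10.8% and 11% of all expressed genes). For ARRB1 siRNA against control siRNA, 5 were lower and 13 higher with nicotine (19.4% and 17.5%), and 8 lower and 10 higher in starved cells (16.4% and 18.3%). None of the 58 passed 2-fold in any of the 4 comparisons. Genes of these lists are given by their brightest probe set alone. CFL1 has 4 probe sets, ROCK1 5 and MRTFB 5, and the dimmer ones are not described here.

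ACTB, the β-actin of the filaments, read 39070 with nicotine and 32296 starved under ARRB1 siRNA, and 32847 with nicotine and 27494 starved under control siRNA. Its highest and its lowest array are those of MYL6 212082_s_at, with log2 differences of 0.23 to 0.27 (SD 0.09 to 0.17). It gave the highest signal of any probe set on 3 of the 4 arrays, so these differences follow the upper end of each array. The medians of the 12 expressed actins and crosslinkers, 0.09 to 0.15 in the 4 comparisons, were 0.00 to 0.03 after quantile normalization. ACTG1 had no probe set naming it alone and is not analysed here. CFL1, the cofilin that severs actin filaments, read 27572 and 18181 under ARRB1 siRNA with nicotine and starved, and 21822 and 19053 under control siRNA with nicotine and starved. Its nicotine difference was 0.60 under ARRB1 siRNA (SD 0.17) and 0.20 under control siRNA (SD 0.09). Over the 21 expressed genes of actin turnover the median nicotine difference was 0.16 under ARRB1 siRNA and 0.08 under control siRNA, and it was 0.01 in both after quantile normalization.

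Of the enzymes that set light chain phosphorylation, MYLK, the myosin light chain kinase, read 1986 with nicotine and 1866 starved under ARRB1 siRNA, and 1662 with nicotine and 1921 starved under control siRNA. ROCK1, a RhoA activated kinase, read 2071 with nicotine and 2314 starved under ARRB1 siRNA, and 2774 with nicotine and 2700 starved under control siRNA, so both ARRB1 siRNA arrays were the lower ones. Its difference of ARRB1 siRNA against control siRNA was -0.42 with nicotine (SD 0.27) and -0.22 in starved cells (SD 0.24). PPP1R12A, the targeting subunit of myosin phosphatase, was highest in starved control siRNA cells, at 2046 and 1934 under ARRB1 siRNA with nicotine and starved, and 2186 and 2354 under control siRNA with nicotine and starved. The nicotine differences of MYLK were 0.09 under ARRB1 siRNA (SD 0.24) and -0.21 under control siRNA (SD 0.17).

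Larger differences in this list were those of CDC42BPB and RND3. CDC42BPB, a CDC42 effector kinase that phosphorylates the regulatory light chain, read 1419 with nicotine and 2152 starved under ARRB1 siRNA, and 1398 with nicotine and 1580 starved under control siRNA. Like MYL12A it was lowest on the nicotine arrays and highest with ARRB1 siRNA starved, with nicotine differences of -0.60 under ARRB1 siRNA (SD 0.23) and -0.18 under control siRNA (SD 0.18). RND3, an atypical GTPase that inhibits ROCK1, read 4124 with nicotine and 3588 starved under ARRB1 siRNA, and 2523 with nicotine and 2734 starved under control siRNA. Both ARRB1 siRNA arrays were above both control siRNA arrays, by 0.71 with nicotine (SD 0.32) and 0.39 in starved cells (SD 0.26).

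SRF and its coactivators, a list of 4 genes, were all expressed and were chosen for mention after their values were seen. With ARRB1 siRNA against control siRNA in starved cells all 4 were lower, against 47.6% of expressed genes, with a median of -0.29. With nicotine under ARRB1 siRNA all 4 were higher, against 48.1% of expressed genes, with a median of 0.33. Over all expressed genes these medians were 0.02 and -0.01. Both comparisons share the starved ARRB1 siRNA array, which was the lowest for each of the 4. SRF read 240 with nicotine and 187 starved under ARRB1 siRNA, and 222 with nicotine and 251 starved under control siRNA. MRTFB read 2185 with nicotine and 1782 starved under ARRB1 siRNA, and 2145 with nicotine and 2342 starved under control siRNA. These genes passed the like-signal SD in both comparisons, SRF with -0.42 (SD 0.39) between siRNAs and 0.36 (SD 0.34) with nicotine, and MRTFB with -0.39 (SD 0.24) and 0.29 (SD 0.22). MRTFA (-0.19, SD 0.32, and 0.13, SD 0.28) and MYOCD (-0.18, SD 0.60, and 0.53, SD 0.61) did not. The counts of 4 were the same after centring each array on its median and after quantile normalization.

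Among the other paralogs, CNN3, the calponin that A549 cells also express, read 2513 with nicotine and 2518 starved under ARRB1 siRNA, and 3153 with nicotine and 3174 starved under control siRNA. Its difference for ARRB1 siRNA was -0.33 both with nicotine (SD 0.29) and in starved cells (SD 0.24), while nicotine left differences of -0.00 and -0.01. CNN3 was picked after its values were seen. In RNA from whole cultures, fewer cells of a type and less RNA per cell cannot be told apart for any of these genes.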

How the data were processed

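RNA of 4 A549 cultures was hybridized to Affymetrix U133 Plus 2.0 arrays, 1 for each siRNA and treatment. The deposited values are linear signal intensities, for which the submitters' processing notes name MAS5 and GCOS 1.4 and the paper names Expression Console. They are neither log transformed nor centred by gene, although the study's methods describe both steps. Detection calls were not used.

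Of 54675 probe sets 62 controls were left out. Symbols came from a table of the platform annotation, which gave 41091 probe sets 1 symbol, 1801 several and 11721 none, and 41037 were matched by gene identifier to RefSeq (GRCh38.p14), the source of positions and promoters. Each gene took the values of its brightest probe set by mean log2 signal. Differences of log2 signals between pairs of arrays were obtained in pandas 2.3.3 and numpy 2.4.6 under Python 3.11.15, with plots in matplotlib 3.10.9. No test was made, and precision is limited by having 1 array per condition. The procedures were tested on simulated data.

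The members and lists were chosen with earlier results of these data known. Genes named are every member, ACTB, ACTG1, ROCK1, MYLK and PPP1R12A, genes of the lists that were expressed and at least 1.5-fold different in any comparison, and the 5 genes nearest to MYL12A among the brightest 10%. SRF and its coactivators, CNN3 and single cell type markers are named outside this rule, after their values were seen. Alternatives were centring on the median or on the brightest 10% of probe sets, quantile normalization, a floor at the 25th percentile (signal 16.5), the median over a gene's probe sets, leaving out _x_at probe sets and, for counts, a limit of 1.2-fold. Leaving out MYL9 was chosen after seeing the data.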

Additional observations from a re-analysis of the deposited data

How the results depend on the processing

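The number of the 10 genes lower with nicotine was 1 under ARRB1 siRNA (3 at any size) and 2 under control siRNA (4 at any size) when a limit of 1.2-fold was set. For ARRB1 siRNA against control siRNA with nicotine it was 0 at that limit (5 at any size) and 2 after centring each array on its median. Fewer values can pass a limit by construction, and the cause of the last was not tested. The other 56 values of counts and medians moved by less than 1.5 times or less than the spread used for them. The member median for ARRB1 siRNA against control siRNA with nicotine ran from -0.03 to 0.19 and so has no settled sign. Single genes changed sign in 5 of 40 values after median centring (TPM4 with nicotine under control siRNA, MYL12B with nicotine under ARRB1 siRNA, and MYL12A, MYL12B and CNN2 between siRNAs with nicotine) and in 1 of 40 after quantile normalization (TPM1 with nicotine under ARRB1 siRNA). MYL12A probe set 201319_at had a lower nicotine signal under each of the 3 scalings and the floor, from -0.72 to -0.62 under ARRB1 siRNA and from -0.50 to -0.41 under control siRNA. No paired analysis was possible because each condition is 1 array and the labels carry no replicate numbers, and for the same reason no array could be left out. Median centring shifted all log2 differences by -0.09 to 0.09. Dim probe sets, such as those of MYL9 and TAGLN, have the widest scatter.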

Other observations

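Dim probe sets of the tropomyosins lay below the expression limit and entered no count of expressed probe sets. TPM1 probe set 1558532_at read 52.3 with nicotine and 13.3 starved under ARRB1 siRNA, and 48.1 with nicotine and 7.77 starved under control siRNA. TPM4 probe set 1559989_at read 23.3 with nicotine and 12.6 starved under ARRB1 siRNA, and 20.5 with nicotine and 7.49 starved under control siRNA. TPM4 probe set 235922_at read 15.8 with nicotine and 8.41 starved under ARRB1 siRNA, and 24.7 with nicotine and 6.26 starved under control siRNA. In all 3 probe sets both nicotine arrays were above both starved arrays. The other member probe sets below the limit, MYL12A 1555978_s_at and both of MYL9, did not have that order. Among the muscle markers below the limit, CNN1 and MYL7 had it and MYH11, LMOD1 and MYL2 did not. How common the order is among all dim probe sets was not counted. The log2 difference of 1558532_at was 1.97 under ARRB1 siRNA (SD of like probe sets 1.47) and 2.63 under control siRNA (SD 1.28). These levels lie where 2 arrays scatter most, and the differences were not tested.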
